A study of Mus musculus with 2 samples.

Results

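The platelet-derived growth factor (PDGF) genes described here are the 4 ligands Pdgfa, Pdgfb, Pdgfc and Pdgfd and the 2 receptors Pdgfra and Pdgfrb. They were picked by symbol, and all 6 were found among 32285 features. They were read in 2 single-cell libraries of whole uterus from female mice, taken on gestational day 3.5, shortly before embryo attachment. The library labelled knockout carries a floxed Mig-6 gene (Mig-6f/f) together with Cre in 1 copy of the progesterone receptor gene (Pgrcre/+). The control library carries the same floxed gene (Mig-6f/f) and no Cre. Mig-6 is the protein of Errfi1, a feedback inhibitor of the EGF receptor, and Cre driven from Pgr directs its removal to cells that express the progesterone receptor. With 1 library per genotype there was no replicate, so no test was made. Every difference is one between these libraries, and every interval covers counting error only. The labels do not say how many mice gave each library.

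PDGF ligands are secreted dimers that bind a pair of receptor tyrosine kinases on neighbouring cells. PDGF-A and PDGF-C act through the alpha receptor, PDGF-B through either receptor and PDGF-D mainly through the beta receptor. PDGF-A and PDGF-B are cut to their mature form inside the cell by furin-type proteases. PDGF-C and PDGF-D leave the cell as latent proteins with a CUB domain and are cut outside it by plasminogen activators or related serine proteases. In most organs epithelium makes PDGF-A for fibroblasts that carry the alpha receptor. Endothelium makes PDGF-B, which recruits pericytes that carry the beta receptor.

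The library labelled knockout held 3118 barcodes and 23317904 unique molecular identifiers (UMIs), and the control held 4627 barcodes and 44871170 UMIs. After filtering, 2881 and 4303 barcodes were kept, with median depths of 4892 and 9175 UMIs, and 3 barcode sequences occurred in both libraries. Barcodes were put into classes by summed marker genes per 10000 UMIs. The epithelial class (Epcam, Krt8, Krt18, Cldn7) held 1419 barcodes labelled knockout and 721 control barcodes. The stromal class (Dcn, Col1a2, Col3a1) held 1045 and 3195, the pericyte class (Rgs5, Notch3, Abcc9, Kcnj8) 19 and 33, and the endothelial class (Pecam1, Cdh5, Emcn, Flt1) 53 and 61. Smooth muscle (146 and 84) and immune (179 and 155) classes were added for reference. Most smooth muscle barcodes also met the stromal rule, 107 of 146 labelled knockout and 62 of 84 in the control. Markers that the rules did not use were high in their own class, such as Wfdc2 in epithelium (6118 and 4647 CPM), Hoxa11 in stroma (132 and 140 CPM) and Kdr in endothelium (501 and 382 CPM). CPM stands for UMIs per 1000000 UMIs of the class in that library. The smooth muscle classes differed in kind between the libraries. Myh11 was 565 CPM labelled knockout and 2665 CPM in the control, and Actg2 405 and 3763 CPM. The stromal gene Col6a1 was 1559 and 434 CPM there. Pericytes had 11 and 61 UMIs of the pericyte gene Higd1b, 4 and 18 of Cspg4 and 2 and 35 of Mcam. In the library labelled knockout Mcam was higher in endothelium (84.6 CPM) than in pericytes (64.3 CPM). Hoxa11 was also 169 CPM in smooth muscle labelled knockout and 78.9 CPM in control smooth muscle.

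Errfi1 was read first because it checks the labels. It was 513 CPM in epithelium labelled knockout and 575 CPM in control epithelium, a ratio of 0.891 (95% interval 0.862 to 0.921). In stroma it went against the label, with 733 CPM labelled knockout and 196 CPM in the control (ratio 3.75, 3.58 to 3.92). Pericytes had 1382 CPM labelled knockout and 434 CPM in the control. The labels do not say which part of the gene is deleted, so it is not known whether the counted tags could show the deletion. Pgr, which drives the Cre, was 394 and 237 CPM in stroma, 59.3 and 49.2 CPM in epithelium, 546 and 554 CPM in pericytes and 373 and 250 CPM in smooth muscle.

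In the 2 large classes 3 PDGF ratios were past 2-fold, 1 in epithelium, where 20.2% of all genes tested were, and 2 in stroma, where 18.5% were. Pdgfa was lower in epithelium labelled knockout, Pdgfd was lower in stroma labelled knockout, and Pdgfrb was higher in that stroma. Stromal Pdgfra and Pdgfc were close to the control. All 6 genes are shown by class in the plot of levels. A class whose library had no UMI of a gene is given by its limit, the level of 3 UMIs, which is 96.4 CPM in pericytes, 21.2 CPM in endothelium and 8.45 CPM in immune barcodes labelled knockout, against 5.76 CPM in control endothelium and 3.26 CPM in control immune barcodes.

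**Figure D1:**
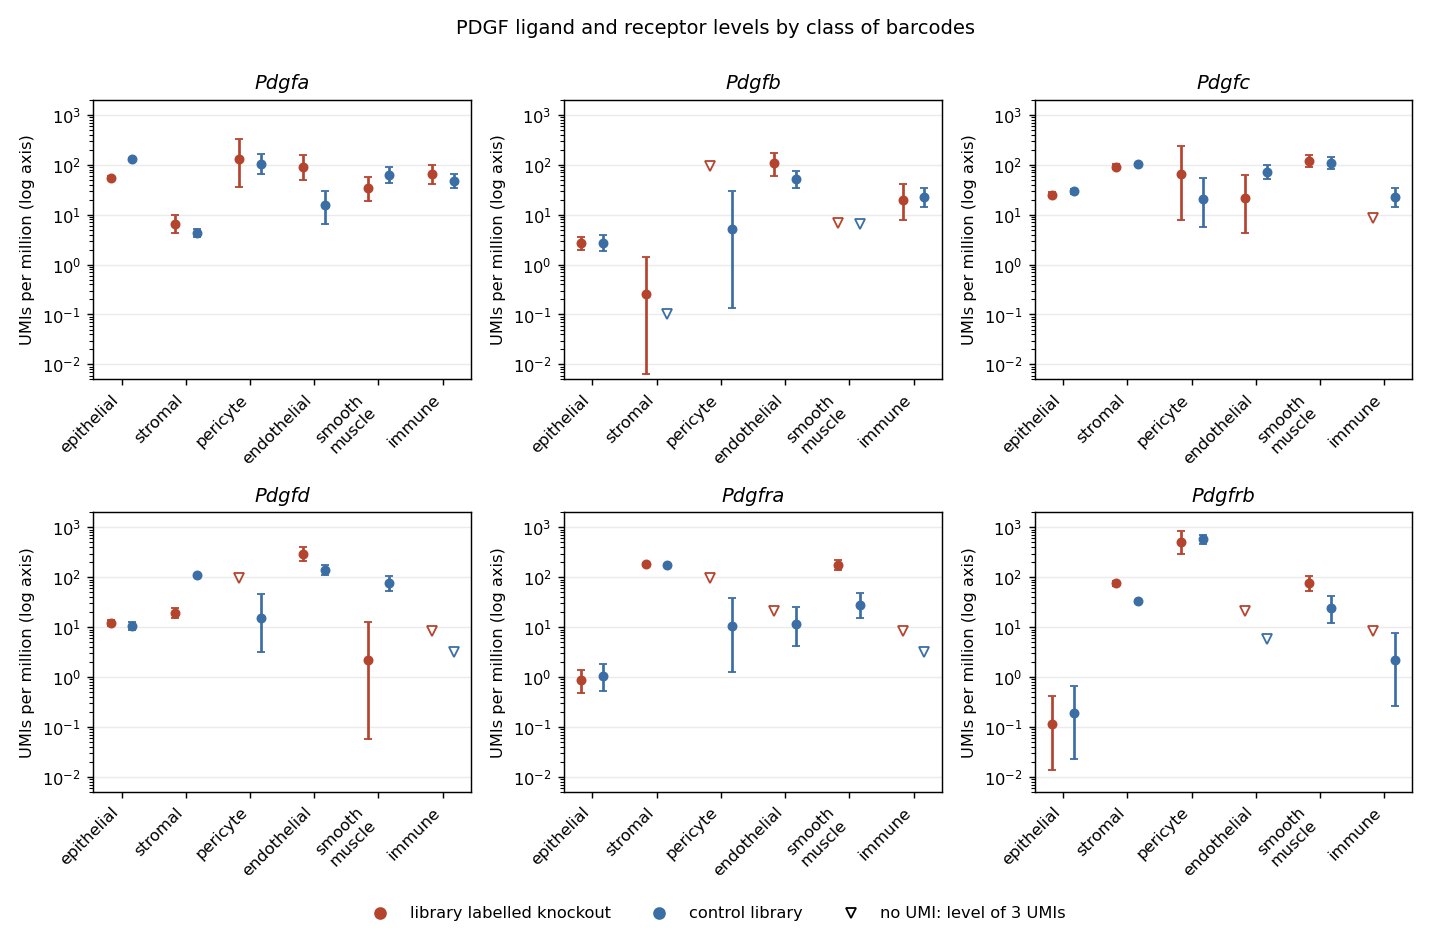
Level of each PDGF gene in CPM (log axis) in 6 classes of barcodes, with the library labelled knockout left of the control in each class; bars are exact Poisson 95% intervals and open triangles mark the level of 3 UMIs where none was counted. Pdgfd in stroma stands at 19.3 CPM labelled knockout and 112 CPM in the control, and Pdgfrb is highest in pericytes of both libraries.

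Pdgfa (ENSMUSG00000025856) encodes the A chain, the alpha receptor ligand that epithelia typically make. Its UMIs came mainly from epithelium, which gave 92.0% of 1040 kept Pdgfa UMIs labelled knockout and 86.3% of 1584 in the control. Epithelial Pdgfa was 54.9 CPM in the library labelled knockout (957 UMIs) and 129 CPM in the control (1367 UMIs). The ratio was 0.427 (0.392 to 0.464), a 2.34-fold lower level. At an equal depth of 2000 UMIs per barcode, 9.80% of epithelial barcodes labelled knockout had a Pdgfa UMI (134 of 1368, exact binomial interval 8.27 to 11.5%), against 22.1% in the control (157 of 709, 19.1 to 25.4%). Without thinning the shares were 40.7% and 67.1%. In stroma, where the level is low, the thinned shares were 1.49% and 1.01%.

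The lower Pdgfa level was seen in both parts of the epithelium when it was split by gland genes. The parts may not hold matched cells in the 2 libraries. Prss29 gave most of the gland sum, and in epithelium it was itself 187 CPM labelled knockout and 1753 CPM in the control. Foxa2 was 8.38 and 9.32 CPM. Barcodes high in gland genes (Foxa2, Prss28, Prss29, Cxcl15) had 33.7 CPM labelled knockout and 68.5 CPM in the control, from 14 and 80 UMIs (ratio 0.492, 0.257 to 0.874). All other epithelial barcodes had 55.4 and 136 CPM (ratio 0.407, 0.374 to 0.443). No barcode carried much of the signal, since the barcode with the most Pdgfa held 8 of 957 UMIs labelled knockout and 19 of 1367 in the control. Stromal markers summed to 10.2 CPM in epithelium labelled knockout and 14.0 CPM in control epithelium, with all 3 detected in both.

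Pdgfa was also present outside epithelium. Pericytes had 129 CPM labelled knockout and 105 CPM in the control, from 4 and 20 UMIs (ratio 1.23, 0.306 to 3.67). That ratio was 0.465 with barcodes past 1 class rule only and 2.06 at equal depth, and pericytes labelled knockout also held 4 UMIs of the epithelial rule markers, against none in control pericytes. Endothelium had 91.7 CPM labelled knockout from 13 UMIs and 15.4 CPM in the control from 8 UMIs (ratio 5.97, 2.29 to 16.6). Immune barcodes had 64.8 and 47.8 CPM, smooth muscle barcodes 33.7 and 63.6 CPM, and stroma 6.62 and 4.23 CPM. Control levels ran from epithelium through pericytes, smooth muscle and immune barcodes to endothelium and stroma, and within the first 4 of these neighbours did not differ beyond counting error. In the library labelled knockout the order began with pericytes, endothelium and immune barcodes, followed by epithelium, smooth muscle and stroma. There only smooth muscle and stroma, as neighbours, differed beyond counting error.

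The start of the Pdgfa gene is shown because the A chain had the clearest epithelial difference. RefSeq sequences for the 250 bases before a gene start were searched on both strands for 4 motifs, the TATA box TATAAA, the GC box GGGCGG bound by SP1-type factors, the steroid receptor half-site AGAACA and the AP-1 site TGANTCA. Coordinates are those of GRCm38.p6, an older build than the one behind the counts. The stretch shown, before 1 of 2 Pdgfa starts, holds 2 GC boxes, each as the reverse complement in capitals, and none of the other 3 motifs. The stretch before the other start (chr5:138994282-138994531) holds 1 GC box and none of the other 3 motifs. A GC box was found in 32.7% of 32817 promoters of that length.
Pdgfa promoter, chr5:138994945-138995194, minus strand: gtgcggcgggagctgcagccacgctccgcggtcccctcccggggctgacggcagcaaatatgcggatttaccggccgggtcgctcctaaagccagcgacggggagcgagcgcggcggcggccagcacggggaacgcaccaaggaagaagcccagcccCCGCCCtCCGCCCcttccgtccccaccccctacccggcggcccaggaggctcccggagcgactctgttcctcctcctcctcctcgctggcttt

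Pdgfb (ENSMUSG00000000489) encodes the B chain, the pericyte recruitment factor of endothelium. Endothelial Pdgfb was 106 CPM labelled knockout (15 UMIs in 11 of 53 barcodes) and 51.8 CPM in the control (27 UMIs in 19 of 61 barcodes). The ratio was 2.04, with an interval of 1.01 to 3.98. Immune barcodes were next, at 19.7 CPM labelled knockout and 22.8 CPM in the control. Endothelium exceeded them by 5.36-fold labelled knockout (2.06 to 15.5) and by 2.27-fold in the control (1.24 to 4.23). Epithelium had 2.70 and 2.73 CPM (47 and 29 UMIs, ratio 0.988, 0.609 to 1.63), and at equal depth the epithelial ratio was 2.33, with 8 of 1368 and 2 of 709 barcodes positive. Stroma gave 1 UMI labelled knockout and none in the control, where 3 UMIs would be 0.102 CPM. Pericytes gave none and 1 UMI, and smooth muscle none in either library. Stroma thus stood near 0 for this ligand in both libraries, while the 96.4 CPM limit of pericytes labelled knockout is too high to say so of them.

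Pdgfc (ENSMUSG00000028019) encodes a latent alpha receptor ligand. It was spread over stroma, smooth muscle and epithelium. Stromal Pdgfc was 91.6 CPM labelled knockout (360 UMIs) and 103 CPM in the control (3014 UMIs), a ratio of 0.891 (0.797 to 0.995). Epithelial Pdgfc was 25.3 and 29.7 CPM (441 and 315 UMIs, ratio 0.853, 0.737 to 0.989). Both ratios lie close to 1, with upper bounds just under it. At equal depth 14.0% of stromal barcodes labelled knockout and 16.6% in the control had a UMI, and in epithelium 4.82% and 4.80%. Smooth muscle barcodes had 119 and 110 CPM. Most of them are also in the stromal class, so smooth muscle and stroma are not separate counts. Those outside the stromal rule had 46.0 CPM labelled knockout and 83.7 CPM in the control, from 4 and 8 UMIs. Endothelial Pdgfc was lower in the library labelled knockout, at 21.2 CPM from 3 UMIs, against 72.9 CPM from 38 UMIs (ratio 0.290, 0.057 to 0.914). Immune barcodes had none labelled knockout and 22.8 CPM in the control from 21 UMIs. Set at the 3 UMI limit the level labelled knockout was 2.70-fold lower, and the counting interval allows as little as 2.01-fold. The immune classes may not hold matched cells. Lyz2 was 330 and 956 CPM there and Csf1r 76.1 and 154 CPM, while Nkg7 was 744 and 732 CPM and Cd3e 25.4 and 13.0 CPM. Pericytes had 2 and 4 UMIs.

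Pdgfd (ENSMUSG00000032006) encodes a latent ligand of the beta receptor. Stromal Pdgfd was 19.3 CPM in the library labelled knockout, from 76 UMIs, and 112 CPM in the control, from 3281 UMIs. The ratio was 0.173 (0.136 to 0.217), a 5.79-fold lower level. At equal depth 3.74% of stromal barcodes labelled knockout had a Pdgfd UMI (35 of 937, 2.61 to 5.16%), against 17.6% in the control (559 of 3170, 16.3 to 19.0%). Without thinning the shares were 5.17% and 43.5%. Immune barcodes, which had no Pdgfd UMI in either library, set the background at 0 of 78 and 0 of 144 barcodes at equal depth, which allows shares of up to 3.85% and 2.08%. The median depth was 3643 UMIs in stroma labelled knockout and 8906 UMIs in control stroma, and 1783 and 5507 UMIs in immune barcodes. The control stromal share stands above its limit. The stromal share labelled knockout does not, but that limit follows from the number of immune barcodes, 78, so it cannot show that this stroma is at background. By level, 19.3 CPM in stroma labelled knockout is above the immune limit of 8.45 CPM.

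The stretch before the Pdgfd start is shown beside this difference. It holds 1 match to the TATAAA motif, in capitals, 160 bases before the start, and no GC box, steroid receptor half-site or AP-1 site. Whether this match acts as a TATA box for this start was not tested. A TATAAA match at any position was found in 12.4% of promoters of that length. Bases G and C made up 53.6% of it, and 72.4% of the Pdgfa stretch.
Pdgfd promoter, chr9:6168236-6168485, plus strand: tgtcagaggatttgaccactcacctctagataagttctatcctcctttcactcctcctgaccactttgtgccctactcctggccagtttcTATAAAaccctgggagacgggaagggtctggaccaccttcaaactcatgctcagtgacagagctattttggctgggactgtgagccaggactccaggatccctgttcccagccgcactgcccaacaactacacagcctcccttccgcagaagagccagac

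Pdgfd in endothelium and epithelium was not lower in the library labelled knockout. Endothelium was the highest class in both libraries, with 296 CPM labelled knockout (42 UMIs) and 142 CPM in the control (74 UMIs). That ratio was 2.08 (1.39 to 3.08). Endothelium stood 15.3-fold above stroma in the library labelled knockout (10.2 to 22.6), against 1.27-fold in the control (0.994 to 1.60). Epithelial Pdgfd was 12.4 and 10.7 CPM (216 and 114 UMIs, ratio 1.15, 0.916 to 1.46), and 1.83% of epithelial barcodes had a UMI at equal depth in each library. Smooth muscle barcodes, most of which are also stromal, were lower, with 1 UMI labelled knockout and 35 in the control (2.25 and 76.7 CPM, ratio 0.0293, 0.000722 to 0.174). Those outside the stromal rule had 0 and 7 UMIs. The smooth muscle classes differ in kind between the libraries, so this ratio does not compare like barcodes. Pericytes had none and 3 UMIs. The makeup of the Pdgfd signal therefore differed, with epithelium giving 64.1% of 337 kept UMIs labelled knockout and 3.24% of 3522 in the control. Stroma gave 22.6% labelled knockout and 93.2% in the control. These shares also carry the class sizes, since epithelium was 49.3% of kept barcodes labelled knockout and 16.8% in the control.

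Pdgfra (ENSMUSG00000029231) encodes the alpha receptor, a marker of fibroblasts in many organs. Stromal Pdgfra was 182 CPM labelled knockout (714 UMIs) and 173 CPM in the control (5080 UMIs). The ratio was 1.05 (0.968 to 1.13), so a difference beyond 1.13-fold lies outside the counting interval. At equal depth 27.7% of stromal barcodes labelled knockout (260 of 937) and 29.8% in the control (944 of 3170) had a UMI, and without thinning 44.7% and 71.2%. Stroma gave 92.4% of the 773 kept Pdgfra UMIs labelled knockout and 98.4% of 5160 in the control. Epithelium was near 0, at 0.861 and 1.04 CPM (15 and 11 UMIs), and immune barcodes had none. Pericytes had none and 2 UMIs, and endothelium none and 6. Smooth muscle barcodes had 178 CPM labelled knockout and 28.5 CPM in the control, but those outside the stromal rule had no Pdgfra UMI in either library. The smooth muscle classes differ in kind between the libraries.

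The stretch before the Pdgfra start is given for contrast, as a gene whose stromal level differed little between the libraries. None of the 4 motifs was found in it, so nothing is in capitals.
Pdgfra promoter, chr5:75152001-75152250, plus strand: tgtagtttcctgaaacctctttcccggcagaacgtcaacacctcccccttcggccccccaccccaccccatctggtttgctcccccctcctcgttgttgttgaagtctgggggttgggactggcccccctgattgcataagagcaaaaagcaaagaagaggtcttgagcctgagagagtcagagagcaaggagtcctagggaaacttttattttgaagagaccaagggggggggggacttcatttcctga

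Pdgfrb (ENSMUSG00000024620) encodes the beta receptor, the receptor of mural cells. Pericytes had the highest level in both libraries, 514 CPM labelled knockout (16 UMIs) and 575 CPM in the control (110 UMIs), and the ratio of 0.894 had an interval of 0.494 to 1.52. They stood 6.72-fold above the next class labelled knockout (3.46 to 12.5) and 17.3-fold above it in the control (14.1 to 21.1). A Pdgfrb UMI was found in 10 of 19 pericytes labelled knockout and in 32 of 33 control pericytes. Their median depths were 1574 and 5784 UMIs, and at equal depth the shares were 4 of 4 and 23 of 33. Of the pericytes, 8 labelled knockout and 1 control barcode also met the smooth muscle rule.

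Stromal Pdgfrb was 75.3 CPM in the library labelled knockout (296 UMIs) and 33.2 CPM in the control (972 UMIs), a ratio of 2.27 (1.99 to 2.59). At equal depth 13.4% of stromal barcodes labelled knockout had a UMI (126 of 937, 11.3 to 15.8%), against 5.46% in the control (173 of 3170, 4.69 to 6.31%). Without thinning the shares were nearly equal, 22.6% and 21.5%, at median depths of 3643 and 8906 UMIs. With class thresholds doubled the ratio was 1.99, under 2-fold. Of the smooth muscle markers in stroma, Des was 754 CPM labelled knockout and 419 CPM in the control, while Myh11 was 8.15 and 32.4 CPM. All 4 smooth muscle markers were detected in stroma of both libraries, and their sum was 796 and 525 CPM. Without barcodes past the smooth muscle rule stromal Pdgfrb was 76.2 CPM labelled knockout and 33.4 CPM in the control, about as before. Pericyte markers in stroma summed to 4.33 and 4.43 CPM.

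Epithelium had 2 Pdgfrb UMIs in each library, endothelium none in either, and immune barcodes none and 2. Smooth muscle had 76.5 CPM labelled knockout and 24.1 CPM in the control. Most of these barcodes are also in the stromal class, so smooth muscle and stroma are not separate counts. Those outside the stromal rule had 115 CPM labelled knockout and 62.8 CPM in the control, from 10 and 6 UMIs.

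**Figure D2:**
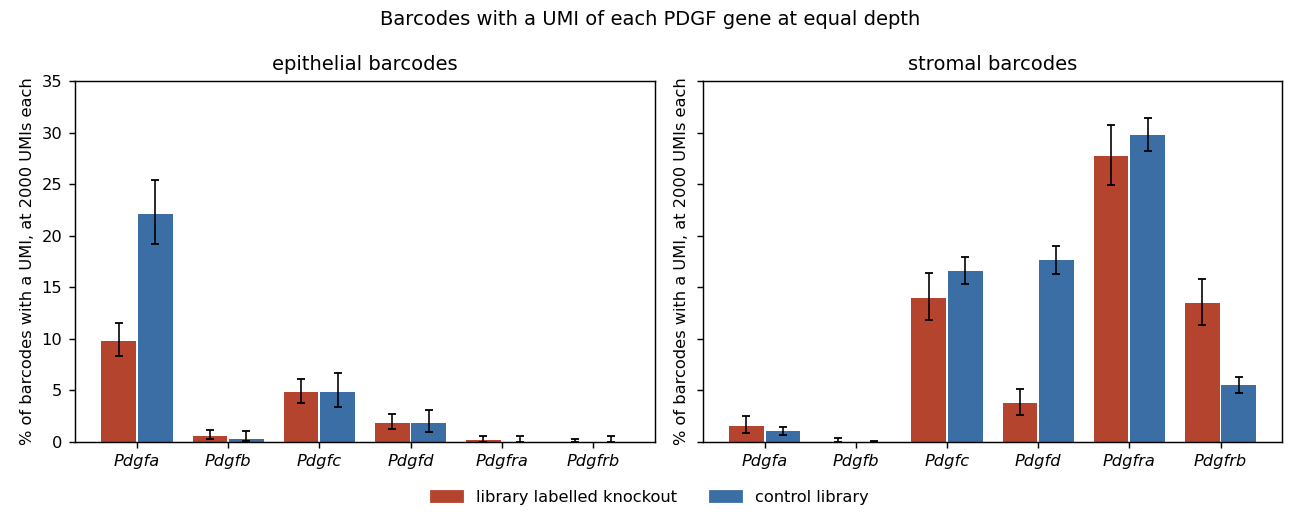
Share of epithelial (left) and stromal (right) barcodes with at least 1 UMI of each PDGF gene after every barcode was thinned to 2000 UMIs, with the library labelled knockout left of the control; bars start at 0 and whiskers are exact binomial 95% intervals. The intervals of the libraries are apart for Pdgfa in epithelium (9.80% and 22.1%) and for Pdgfd (3.74% and 17.6%) and Pdgfrb (13.4% and 5.46%) in stroma.

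Both receptors were read together in stromal barcodes at equal depth. Pdgfrb without Pdgfra was found in 10.5% of stromal barcodes labelled knockout (98 of 937) and in 3.63% in the control (115 of 3170). Pdgfra without Pdgfrb was found in 24.8% and 28.0%, and neither in 61.8% and 66.6%. Both receptors were found in 2.99% labelled knockout and 1.83% in the control. Independent detection would give 3.73% and 1.63%. For this pair both values lie within the counting intervals of the shares (1.99 to 4.29% and 1.39 to 2.36%), and at this depth a missing UMI does not show a missing transcript. Pdgfd with Pdgfra was found in 1.07% of stromal barcodes labelled knockout (0.513 to 1.95%) and 6.37% in the control (5.55 to 7.28%), where independent detection would give 1.04% and 5.25%. The control value is above the independent one beyond counting error. Pdgfc with Pdgfra was found in 4.16% labelled knockout and 5.17% in the control, where independent detection would give 3.88% and 4.93%. Pdgfa with Pdgfra was found in 0.320% and 0.221%, where it would give 0.415% and 0.301%. For Pdgfc and Pdgfa the independent values lie within the counting intervals in both libraries.

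**Figure D3:**
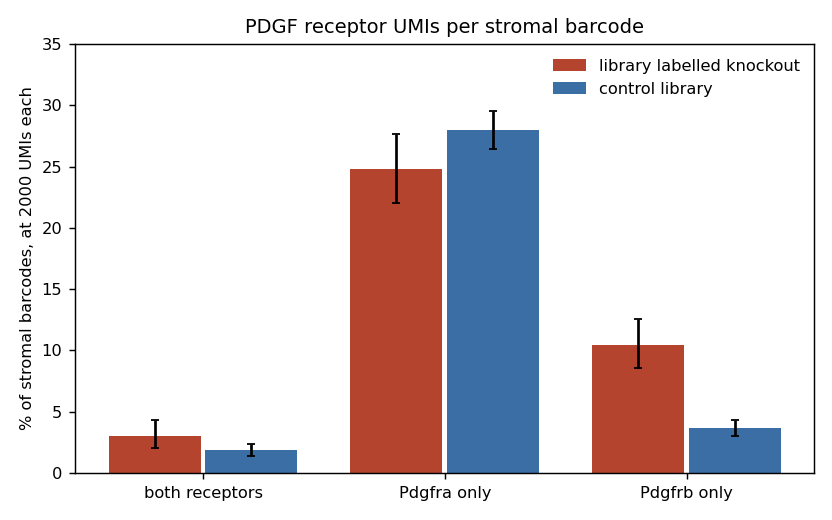
Share of stromal barcodes, thinned to 2000 UMIs, with UMIs of both PDGF receptors, of Pdgfra only or of Pdgfrb only, the library labelled knockout left of the control, with exact binomial 95% intervals. Barcodes with Pdgfrb only are 10.5% labelled knockout and 3.63% in the control.

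The stromal differences were then followed across stromal barcodes of different kinds. In each library the 25% of stromal barcodes with the highest sums were taken as a high set, for each of 5 gene groups. The groups were Robo2 with Hoxa11os, the matrix genes Dpt, Igfbp6 and Lum, then Adarb2, Rorb and Angptl7, the inflammatory genes Ccl2, Cxcl1 and Ifi27l2a, and the decidual signals Wnt4, Bmp2 and Inhbb. These sets overlap, and 2 of them differ in kind between the libraries. The lowest sum in the inflammatory set was 10.3 per 10000 UMIs labelled knockout and 1.09 in the control, and for the last group the control set reaches down to barcodes with no UMI of the group. Pdgfd lay between 13.1 and 29.3 CPM in the 5 sets labelled knockout and between 88.2 and 133 CPM in the 5 control sets. It was lowest in the matrix set labelled knockout and highest in the Robo2 set of the control. The ranges of the libraries did not overlap.

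Pdgfrb lay between 45.5 and 95.6 CPM in the sets labelled knockout and between 28.0 and 40.8 CPM in the control sets. Its lowest value labelled knockout was in the matrix set, with 45.5 CPM against 32.7 CPM in the control, and these counting intervals overlapped slightly (33.2 to 60.8 and 28.5 to 37.3). Within each library the inflammatory set had the highest Pdgfrb, 95.6 CPM labelled knockout and 40.8 CPM in the control. The Wnt4 set was close to it, with 86.9 and 39.9 CPM, and the counting intervals of these sets overlapped in both libraries. Pdgfra ranged from 151 to 213 CPM labelled knockout and from 139 to 208 CPM in the control. Its widest gap was in the Wnt4 set, with 206 CPM labelled knockout and 141 CPM in the control. Pdgfc ranged from 55.8 to 120 CPM labelled knockout and from 85.3 to 145 CPM in the control, and in both libraries the Robo2 set was highest.

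**Figure D4:**
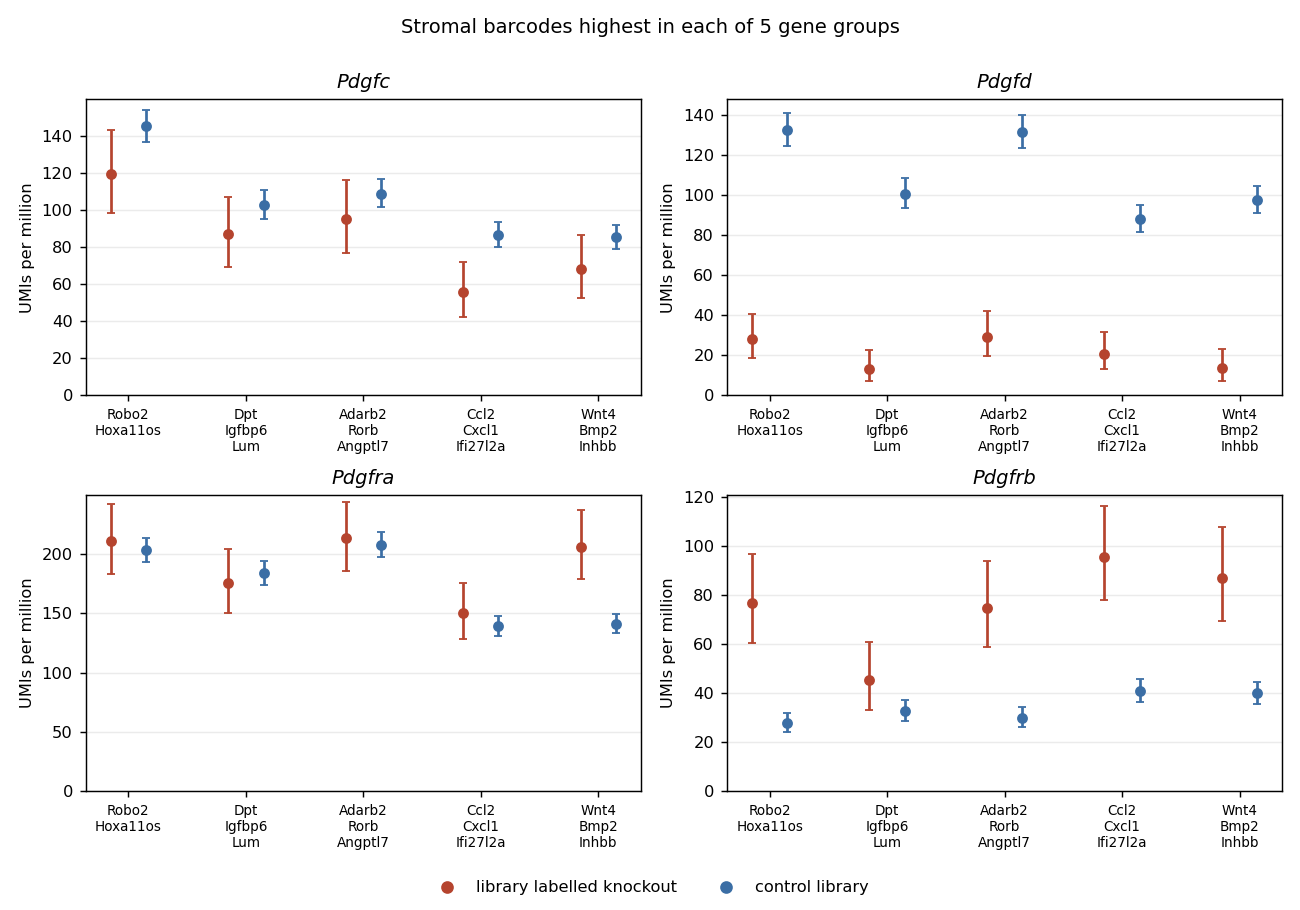
Levels in CPM of Pdgfc, Pdgfd, Pdgfra and Pdgfrb in the 25% of stromal barcodes with the highest sum of each of 5 gene groups (x axis), the library labelled knockout left of the control, with exact Poisson 95% intervals. Pdgfd stays at or below 29.3 CPM in all 5 sets labelled knockout and at or above 88.2 CPM in all 5 control sets.

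Counts past 2-fold were read against all genes with at least 20 UMIs in a class. In epithelium 5 members had that many UMIs, and 1 of them, Pdgfa, was past 2-fold, against 20.2% of all 13347 genes there (685 higher and 2006 lower in the library labelled knockout). In stroma 2 of 5 members were past 2-fold, Pdgfd lower and Pdgfrb higher, against 18.5% of 14424 genes (809 higher and 1854 lower). In pericytes neither of the 2 members with enough UMIs was past 2-fold, against 29.2% of 2048 genes. In endothelium all 4 members with enough UMIs were past 2-fold, Pdgfa, Pdgfb and Pdgfd higher and Pdgfc lower, against 16.4% of 5102 genes (364 higher and 472 lower). The epithelial share of members is that of all genes, and with 5 members the stromal share cannot be told from it. The median log2 ratio of the members was -0.23 in epithelium, 0.07 in stroma, 0.07 in pericytes and 1.04 in endothelium, beside -0.18, -0.05, -0.08 and 0.00 over all those genes.

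**Figure D5:**
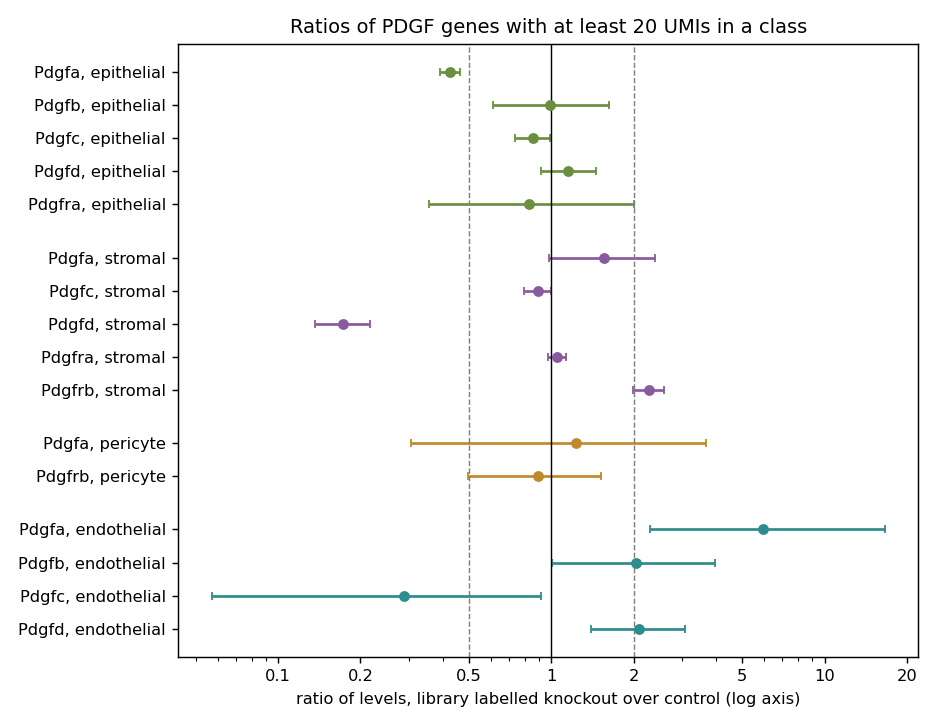
Ratio of levels, library labelled knockout over control (log axis), for each PDGF gene with at least 20 UMIs in a class, with exact conditional 95% intervals; the solid line marks 1 and dashed lines mark 2-fold either way. Intervals are narrow in epithelium and stroma and wide in pericytes and endothelium, where Pdgfa spans 2.29 to 16.6.

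The endothelial values rest on few barcodes, and immune markers moved with them. The 4 immune rule markers (Ptprc, Cd52, Coro1a, Laptm5) summed to 642 CPM in endothelium labelled knockout and 21.1 CPM in the control, where Coro1a and Laptm5 were at 0. Of the endothelial barcodes, 11 labelled knockout and 1 in the control also met the immune rule. Without them Pdgfa was 66.0 CPM labelled knockout and 15.4 CPM in the control, Pdgfb 124 and 52.1 CPM, Pdgfc 24.8 and 73.3 CPM, and Pdgfd 347 and 143 CPM. All 4 kept their direction. Stromal markers moved with these values too, summing to 14.1 CPM labelled knockout and 250 CPM in the control, with Col1a2 and Col3a1 at 0 in the library labelled knockout, and their part in the result was not tested. When barcodes were averaged with equal weight, the endothelial ratios were 1.16 for Pdgfb, 1.84 for Pdgfd and 0.597 for Pdgfc, all inside 2-fold, and 5.20 for Pdgfa. At equal depth Pdgfd was 1.52, and with barcodes past 1 class rule only Pdgfb was 1.81 and Pdgfd 1.85. A single barcode held 5 of the 13 Pdgfa UMIs labelled knockout and another 9 of the 42 Pdgfd UMIs.

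Endothelial rule markers in stroma summed to 14.0 CPM labelled knockout and 39.0 CPM in the control, with all 4 detected in both. Most of that sum was Cdh5, with 37 of 55 and 1027 of 1144 UMIs, while Pecam1 was 1.53 and 2.29 CPM and the endothelial markers that the rule did not use summed to 2.29 and 1.91 CPM. In the same stroma, epithelial rule markers summed to 20.6 CPM labelled knockout and 5.56 CPM in the control, with all 4 detected in both. Epithelial markers in epithelium itself summed to 4338 and 4048 CPM, so the stromal values are a small part of an epithelial profile. The part of either marker group in the Pdgfd and Pdgfrb values was not tested.

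The proteases that cut PDGF chains were read with 24 pathway genes in all. In epithelium 23 had at least 20 UMIs, of which 2 were past 2-fold higher, 2 lower and 19 inside 2-fold, and all 4 past it were among the 5 proteases. The share past 2-fold over all epithelial genes was 20.2%, so the list as a whole does not stand out. Furin, which matures PDGF-A and PDGF-B, was 103 CPM labelled knockout and 51.0 CPM in the control (ratio 2.01, 1.83 to 2.22). Plau, the urokinase that can activate PDGF-D, was 24.3 and 7.82 CPM (ratio 3.11, 2.45 to 3.98). Plat, the tissue plasminogen activator that cuts PDGF-C, was lower at 6.72 and 21.1 CPM (ratio 0.318, 0.252 to 0.400). Pcsk5, a furin-type convertase, had 12 and 62 UMIs (0.689 and 5.84 CPM). St14, the membrane protease matriptase, was 222 and 153 CPM.

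All 24 pathway genes had enough UMIs in stroma, and all 24 were inside 2-fold there, against 18.5% of all stromal genes past it. Pcsk5, which was highest in stroma among the 4 main classes, had 410.3 CPM labelled knockout and 710 CPM in the control. Among receptor partners, the coreceptors Lrp1 and Nrp1 were 97.7 and 81.4 CPM and 101 and 93.6 CPM, and Sparc, a matrix protein that binds PDGF, was 1551 and 1497 CPM. The adaptors and enzymes downstream of the receptors had a median log2 ratio of 0.07 in stroma and 0.00 in epithelium. The 5 limiters of signalling (Cbl, Cblb, Ptpn1, Ptpn2 and Ptprj) had medians of 0.07 and -0.04.

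Small classes gave fewer pathway genes. In pericytes 6 had at least 20 UMIs, with Plat past 2-fold higher (9 and 15 UMIs), Sparc past 2-fold lower (31 and 398 UMIs, ratio 0.479), Ptpn1 lower on 1 and 20 UMIs (ratio 0.307, 0.00741 to 1.92, which spans 1) and 3 inside, against 29.2% of all pericyte genes past 2-fold. In endothelium 18 had enough, with Plat (12 and 10 UMIs), the PI3-kinase subunit Pik3r1 (37 and 38 UMIs) and the receptor phosphatase Ptprj (22 and 4 UMIs) higher and 15 inside, against 16.4% of all endothelial genes past 2-fold. Of the 22 Ptprj UMIs labelled knockout, 16 came from the 11 barcodes that met the immune rule.

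Genes with the most similar pattern were ranked by the Pearson correlation of log2(CPM + 1) over 12 points, the 6 classes in both libraries, among 7032 genes. Points of small classes carry few UMIs and share a library, so the values describe likeness only. Pdgfra was nearest to Ccbe1 (0.99), Dpt (0.98) and Slc6a2 (0.98). Pdgfrb was nearest to Heyl (0.99), Pcdh18 (0.98) and Rem1 (0.98). Pdgfb was nearest to Neurl3 (0.97), Ifi47 (0.96) and Dennd3 (0.96), and Pdgfd to Hnrnph1 (0.95), Zfp423 (0.94) and Spaca6 (0.93). The nearest to Pdgfc were Tmem250-ps (0.94), Snrpd3 (0.93) and Ipo4 (0.92). Pdgfa had the lowest values, with Cdk6 (0.87), B3gnt2 (0.83) and Wdr1 (0.83).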

How the data were processed

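Per the labels' protocols, uterine cells were freed with trypsin, passed through a dead cell removal kit and loaded on 10x droplets to capture polyadenylated RNA. The authors deposited raw UMI counts for each gene and barcode. Per the file headers these come from Cell Ranger 7.0.1. The submitters' processing notes also name Seurat and mm39. RefSeq sequences are from GRCm38.p6, so no coordinates were joined to the counts.

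A barcode needed 500 genes and could hold up to 15% mitochondrial UMIs, which removed 115 and 65 barcodes under the gene minimum and 114 and 126 over the mitochondrial limit in the library labelled knockout and the control. Scrublet in scanpy 1.11.5 scored doublets per library, and the highest 0.8% per 1000 barcodes were removed (70 and 159). Marker sums per 10000 UMIs had to reach 10 for epithelial, stromal, endothelial and immune barcodes, 15 for pericytes and smooth muscle, and 20 for gland-high epithelium. A barcode past the stromal and the pericyte or endothelial rule was taken as pericyte or endothelial. Barcodes past the epithelial and another rule, or the pericyte and endothelial rules, were left out (10 and 27). Immune barcodes had to fail all 4 rules.

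For each class and library, UMIs were summed and divided by the class total. Ratios carry exact conditional 95% intervals, levels exact Poisson intervals and shares exact binomial intervals, all for counting error only. Thinning drew 2000 UMIs per barcode and left out shallower ones. The named genes are the 6 members, the pathway genes past 2-fold in a class, Errfi1 and Pgr, and the 3 genes with the most similar pattern, leaving out markers, mitochondrial, ribosomal and unnamed genes and genes under 50 CPM in all points. Other pathway genes with values were named after those were seen. Members, lists and rules were chosen with earlier results of these data known.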

Additional observations from a re-analysis of the deposited data

Results flagged for a closer look

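Pdgfa differed in opposite directions in epithelium and endothelium. Its level in the library labelled knockout over the control had a ratio of 0.427 in epithelium and 5.97 in endothelium, where it rests on 13 and 8 UMIs.

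Pdgfd also differed in opposite directions by class, with a ratio of 0.173 in stroma and 2.08 in endothelium, the endothelial value from 42 and 74 UMIs. That endothelial ratio was inside 2-fold at equal depth, as a mean over barcodes and with barcodes past 1 class rule only. For both genes the difference between the classes was not tested, since each genotype has 1 library.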

How the results depend on the processing

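Of 146 alternatives run over 16 ratios, 141 left the ratio inside its counting interval, 5 moved it outside, and 0 turned the direction of a ratio past 2-fold. The 141 include alternatives that could not move a ratio. Epithelial and stromal barcodes already pass 1 class rule only, so that setting repeats their reported ratios. Leaving out smooth muscle barcodes also left the epithelial ratios of Pdgfa, Pdgfb, Pdgfc and Pdgfd unchanged. Ratios inside 2-fold did cross 1 under some alternatives, down to 0.465 for pericyte Pdgfa, and up to 1.24 for pericyte Pdgfrb, 1.06 for epithelial Pdgfra and 2.33 for epithelial Pdgfb. Epithelial Pdgfa was 0.369 when thinned to 2000 UMIs, 0.469 with median of ratios scaling and 0.387 as a mean over barcodes. Epithelial Pdgfb was 2.33 when thinned, and stromal Pdgfrb was 1.99 with class thresholds doubled. Ratios of Pdgfra in epithelium and Pdgfc in endothelium gave no value when thinned, because a library had no UMI left.

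The number of members past 2-fold in epithelium, 1, became 0 at 3-fold and 2 when thinned. In stroma the 2 became 1 at 3-fold and 1 with doubled thresholds. In pericytes the 0 became 1 with barcodes past 1 class rule only and 1 when thinned. In endothelium the 4 became 2 at 3-fold, 2 with barcodes past 1 class rule only, 2 when thinned and 1 as a mean over barcodes. The cause was not tested, except that a 3-fold threshold is stricter by construction.

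Without thinning, the shares of barcodes with a UMI, labelled knockout then control, were higher for these genes. They were 40.7% and 67.1% for epithelial Pdgfa, 19.9% and 20.9% for epithelial Pdgfc, 9.65% and 10.5% for epithelial Pdgfd, 22.3% and 43.9% for stromal Pdgfc, 5.17% and 43.5% for stromal Pdgfd, 44.7% and 71.2% for stromal Pdgfra, and 22.6% and 21.5% for stromal Pdgfrb. Leaving out endothelial barcodes past the immune rule was chosen after seeing the data. No paired analysis was possible because each genotype has 1 library. Depth limits pericytes and endothelium, where member ratios rest on as few as 3 UMIs in a library and the Ptpn1 ratio on 1.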
